A study of Mus musculus with 57 samples.

Results

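The genes described here encode the proteins of the mitochondrial ribosome, here measured in wild-type (WT) mouse visual cortex. They were taken as the table rows whose symbol begins with Mrpl or Mrps and a number and whose mean normalized count over all 57 libraries was at least 10. Of 77 such symbols 70 met that mean, out of 10526 genes that did. RNA was sequenced by MARS-Seq, which reads tags from the 3′ ends of transcripts, in 57 libraries of 15 groups. All mice had lived under 12 h of light and 12 h of dark, and times are given as Zeitgeber time (ZT), the hours after the usual lights-on. The light arm, 27 libraries, had its usual light on the day of collection, with collections from ZT1 to ZT18 and 4 libraries per time, except 3 at ZT18. For the dark arm, 30 libraries, the lights stayed off that day, with collections from ZT0 to ZT18 and 4 libraries per time, except 3 at ZT1 and 3 at ZT13. Apart from ZT0 the arms shared their 7 times, with ZT1 to ZT11.5 in the usual day (ZT1, ZT3, ZT7.5, ZT11.5) and the rest in the usual night (ZT13, ZT15, ZT18). The Dark ZT0 group, collected at the hour of lights-on, was the baseline of both arms at dawn. The labels call the samples biological replicates without tying each to its own animal, so the p-values rest on the spread between samples that may share an animal.

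Mitochondria carry their own ribosomes, which translate the few proteins encoded in mitochondrial DNA, all of them subunits of the oxidative phosphorylation complexes. The ribosomal RNAs come from mitochondrial DNA, while every protein of the large subunit (Mrpl genes) and of the small subunit (Mrps genes) is encoded in the nucleus, made in the cytosol and imported. Part of these proteins descend from bacterial ribosomal proteins, and others were added in the mitochondrial lineage. Neurons depend on oxidative phosphorylation for the energy that synaptic signalling consumes. The data address whether transcripts of this large complex followed light exposure or time of day in the visual cortex.

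The promoter sequences of the 5 genes that passed a test of change over the day are shown first. They were 4 of the 70 genes over the dark times (5.71%, against 6.52% of all genes) and 1 over the light times (1.43% against 3.81%). These shares were near or under those of all genes, so the sequences are given as description only. Each line gives the 150 bases before the RefSeq transcription start (GRCm38.p6), 5′ to 3′ on the plus strand, on which all 5 genes lie. Capitals mark matches to the binding motifs of NRF1 (GCGCA and GCGC with any base between them) and of the ETS family, to which the factor GABP belongs (CCGGAAG), which are known to occur in promoters of nuclear genes for mitochondrial proteins.
Mrpl3: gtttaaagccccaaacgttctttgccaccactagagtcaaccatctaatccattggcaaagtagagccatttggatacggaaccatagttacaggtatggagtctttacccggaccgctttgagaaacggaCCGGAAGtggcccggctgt
Mrpl34: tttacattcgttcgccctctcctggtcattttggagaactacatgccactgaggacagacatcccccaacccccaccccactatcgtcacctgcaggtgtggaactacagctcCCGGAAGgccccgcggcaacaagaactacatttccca
Mrpl45: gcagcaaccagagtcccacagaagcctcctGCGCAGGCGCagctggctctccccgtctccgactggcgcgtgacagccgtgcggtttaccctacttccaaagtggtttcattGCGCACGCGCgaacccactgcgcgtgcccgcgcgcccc
Mrps10: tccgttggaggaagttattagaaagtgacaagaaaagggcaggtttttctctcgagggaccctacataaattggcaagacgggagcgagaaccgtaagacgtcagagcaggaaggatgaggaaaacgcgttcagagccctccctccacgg
Mrpl14: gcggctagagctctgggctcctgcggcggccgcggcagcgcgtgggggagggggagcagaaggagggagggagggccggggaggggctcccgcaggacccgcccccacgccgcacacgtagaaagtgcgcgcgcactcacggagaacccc

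The window of Mrpl3 covered chr9:105053118-105053267, that of Mrpl34 chr8:71464776-71464925, that of Mrpl45 chr11:97315566-97315715, that of Mrps10 chr17:47369047-47369196 and that of Mrpl14 chr17:45686199-45686348. An ETS match began 19 bases before the start in Mrpl3 (position -19) and at position -37 in Mrpl34. In Mrpl45 matches to the NRF1 motif began at positions -120 and -38. The windows of Mrps10 and Mrpl14 held none of the motifs searched. For Mrps10 the whole window lies downstream of the start that GENCODE gives the gene, at 47368887, so it covers only the sequence before the RefSeq start. The windows of Mrpl3 and Mrpl14 run past their GENCODE starts, at 105053239 and 45686322. The ETS match of Mrpl3 lies downstream of its GENCODE start. The search ran over 250 bases before each start, on both strands, with YY1 (AANATGGC), the E-box (CACGTG) and the cyclic AMP response element, CRE (TGACGTCA), as further motifs. The RefSeq promoter table matched 62 of the 70 members and held 27025 genes in all, some with several overlapping windows, so genes were counted once each. Unlike the members, these 27025 genes were not filtered by level, so the shares below compare unlike sets. The ETS motif was found in 16 of the 62 members (25.8%) against 7.83% of all genes, and NRF1 in 8 (12.9%) against 4.23%. YY1 was found in 7 (11.3%) against 4.49%, the E-box in 5 (8.06%) against 6.86% and CRE in 2 (3.23%) against 1.77%. A match describes the letters in these windows and not a bound site. The windows of the members were also richer in G and C, with a median of 58.4% against 52.4%, and the part of base composition in these shares was not tested.

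The 70 members lay on 17 chromosomes, with 10 on chromosome 11 and 7 on chromosome 17, in the GENCODE annotation of GRCm38 (release M21). A protein-coding gene that starts within 1000 bases on the opposite strand, pointing away or overlapping at the start, was found beside 15 of them (21.4%), against 1056 of 9985 protein-coding genes tested (10.6%). Some partners also act in mitochondria. The start of Mrps12, whose product sits in the decoding centre of the small subunit, lay 172 bases from that of Sars2, the mitochondrial seryl-tRNA synthetase. The start of Mrpl36 lay 29 bases from that of Ndufs6, a complex I subunit, and exons of these genes overlap. The start of Mrpl49 lay 59 bases from that of Fau, which encodes a cytosolic ribosomal protein fused to a ubiquitin-like domain.

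Levels are deposited normalized counts, which are tag counts and carry no term for transcript length. The mean level of a member had a median of 203, and 52 of the 70 lay at 100 or more while 11 lay under 50. Mrpl52, a mitochondria-specific protein of the large subunit, was highest at 652 (524 to 782 over the libraries). Next came Mrpl20 at 634 and Mrpl30 at 601, homologs of bacterial large-subunit proteins, and then Mrps12 at 568. The ranges of these 4 genes overlapped, so their order was not resolved in single libraries. By subunit, the 45 members of the large subunit had a median level of 190 and the 24 of the small subunit 210. Mrps30 and Mrps18a, named as small-subunit proteins, were counted with the large subunit, where their products reside, and Mrps36, a component of the oxoglutarate dehydrogenase complex, with neither. Among large-subunit members the 28 with a bacterial homolog had a median of 170 and the 17 specific to mitochondria 213. In the small subunit the medians were 219 for 16 homologs and 157 for 8 mitochondria-specific members.

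The lowest members were Mrpl47 at 10.3, Mrpl11 at 13.0 and Mrps33 at 13.3. Just under the minimum mean stood Mrpl41 at 4.82 and Mrpl57 at 3.85. The other 5 symbols left out were Mrps18b at 3.52, Mrps25 at 3.16, Mrpl50 at 2.98, Mrpl15 at 1.05 and Mrpl17 at 0.336. For 15 of the 70 members the last 300 bases of a transcript matched another gene's transcript at 95% identity or more over at least 150 bases, and exons overlapped those of another gene on the same strand for 8 and on the opposite strand for 25. The sources used here give neither the way reads from such sequences were assigned nor the use of strand, so the levels of such genes are uncertain.

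**Figure D1:**
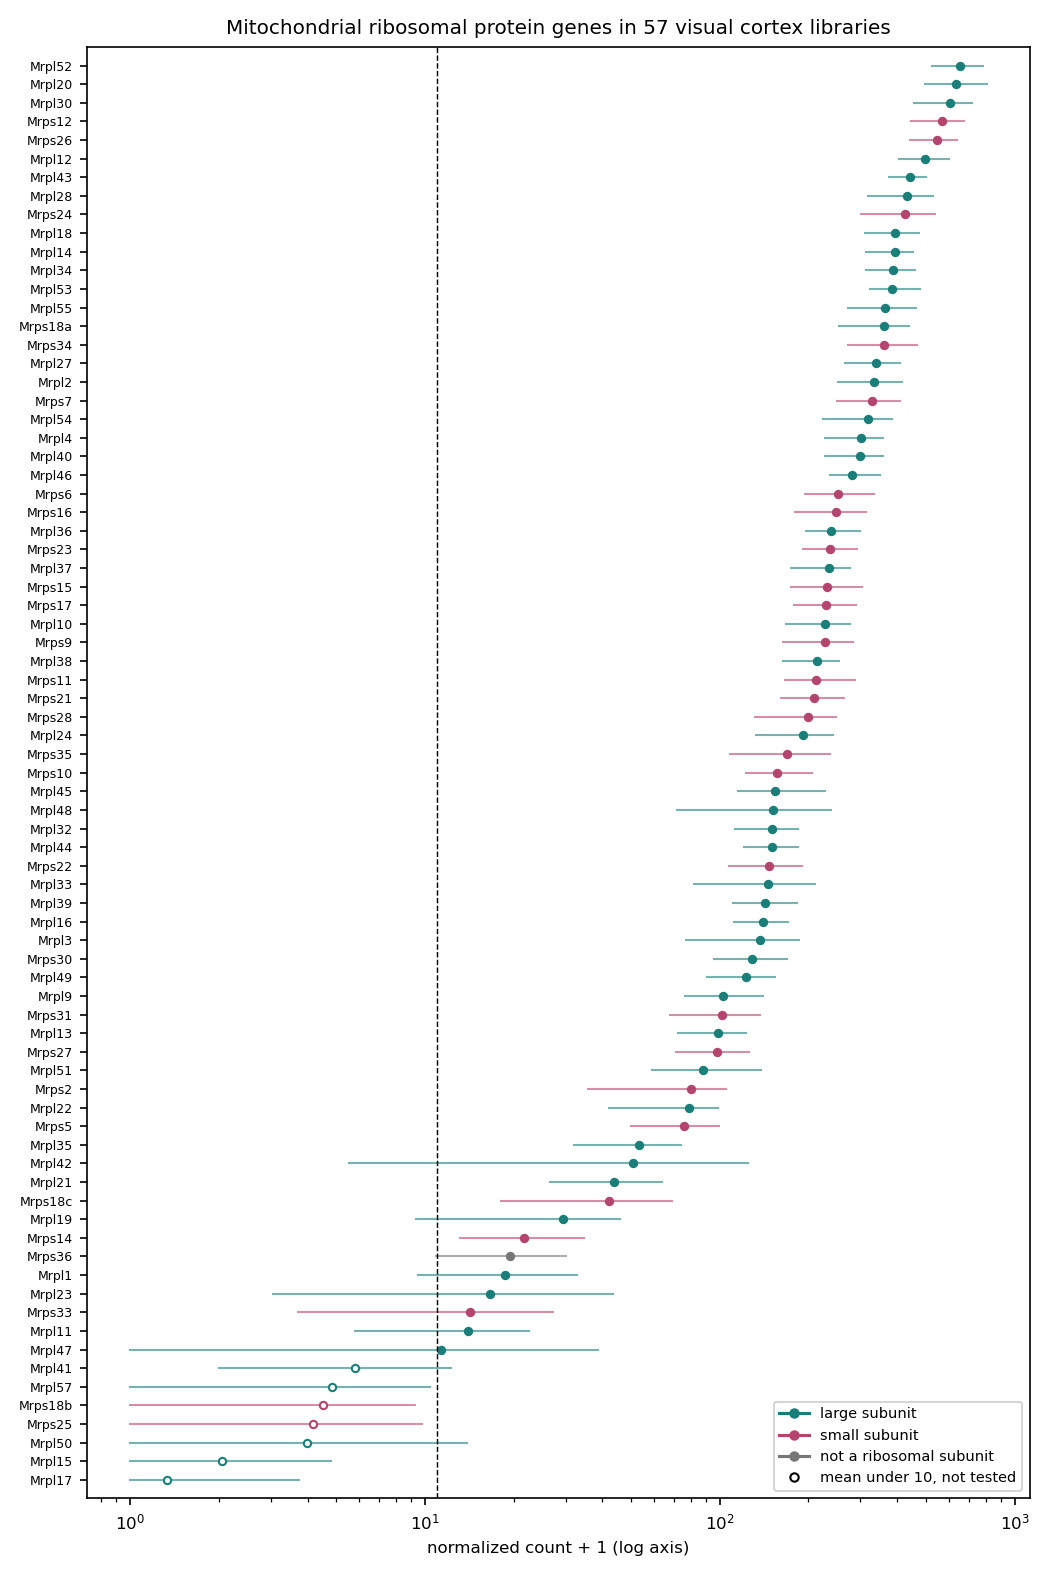
Mean (point) and range over 57 libraries (line) of the normalized count of each mitochondrial ribosomal protein gene, plus 1, on a log axis, coloured by subunit. Open points are the 7 genes with a mean under 10, the dashed line marks a mean of 10, and Mrpl42 and Mrpl47 have the widest ranges of the tested genes above and near that line.

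Most members were steady between replicates. The SD of log2 level within groups had a median of 0.16 over the 70, of 0.14 over the 52 with a mean of 100 or more, and of 0.41 over the 11 with a mean under 50. The steadiest were Mrpl14 at 0.08, Mrpl43 at 0.09 and Mrpl53 at 0.10, all proteins of the large subunit. The most variable were Mrpl42 at 1.20, Mrpl47 at 0.97 and Mrpl23 at 0.68. Over the 15 groups the median correlation of a member's group means with the mean of all members was 0.30, above 0.5 for 16 members and under 0 for 17, where each member is itself part of that mean. Outside the 70, the genes whose 15 group means followed the members' mean most closely were Chchd1 (Pearson r = 0.905), Mak16 (0.893), Gtf2h5 (0.883), Pcdhb14 (0.874) and Zbtb8os (0.874). These values describe 15 groups that share the same libraries and normalisation.

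Depth ran from 1.64 to 4.31 M reads (mega) per library, with 9496 to 26386 reads on the 70 members, and 7 libraries had under 2 M. Markers of excitatory cortical neurons were present in every library, Slc17a7 at 2609 to 5390 and Camk2a at 3654 to 6425. Striatal markers differed, with Drd2 listed at 0 in all 57 but Ppp1r1b at 326 to 727. Drd1 ran from 2.53 to 17.9 and Adora2a from 2.08 to 26.3. Choroid plexus markers summed to between 60.6 and 20793, with Ttr alone at 53.5 to 20493, Folr1 at 0 in 1 library and Kcnj13 at 0 in 13. Xist, made from the inactive X, exceeded 20 in all 27 libraries numbered 3 or 4 and in 2 of the 30 numbered 1 or 2. All 4 libraries of Light ZT13 exceeded it. The part of these differences in the results was not tested, except through the alternatives named beside them.

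Group means of the summed level of the 70 genes ran from 14820 at Light ZT13 to 16229 at Light ZT7.5. The members' summed normalized count ran from 14199 to 16850 over the 57 libraries, with a median of 15744, which was 0.519% to 0.622% of all values. The mean log2 deviation of the members from their average over all libraries had a pooled SD of 0.054 within groups, and the 15 group means had an SD of 0.040. The former is a spread of single libraries and the latter one of means, so they are not directly comparable. For 72 cytosolic ribosomal protein genes the within-group SD was 0.11 and for 72 nuclear genes of oxidative phosphorylation subunits 0.074. The lowest deviations of the members were those of Light ZT13 replicate 3 at -0.21 and replicate 4 at -0.18, while replicates 1 and 2 of that group lay at -0.02 and 0.06. The cytosolic ribosomal proteins averaged -0.17 ± 0.26 (SD, n = 4) in that group and the oxidative phosphorylation genes -0.15 ± 0.19. In bulk tissue fewer cells of a type and less RNA per cell cannot be told apart.

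**Figure D2:**
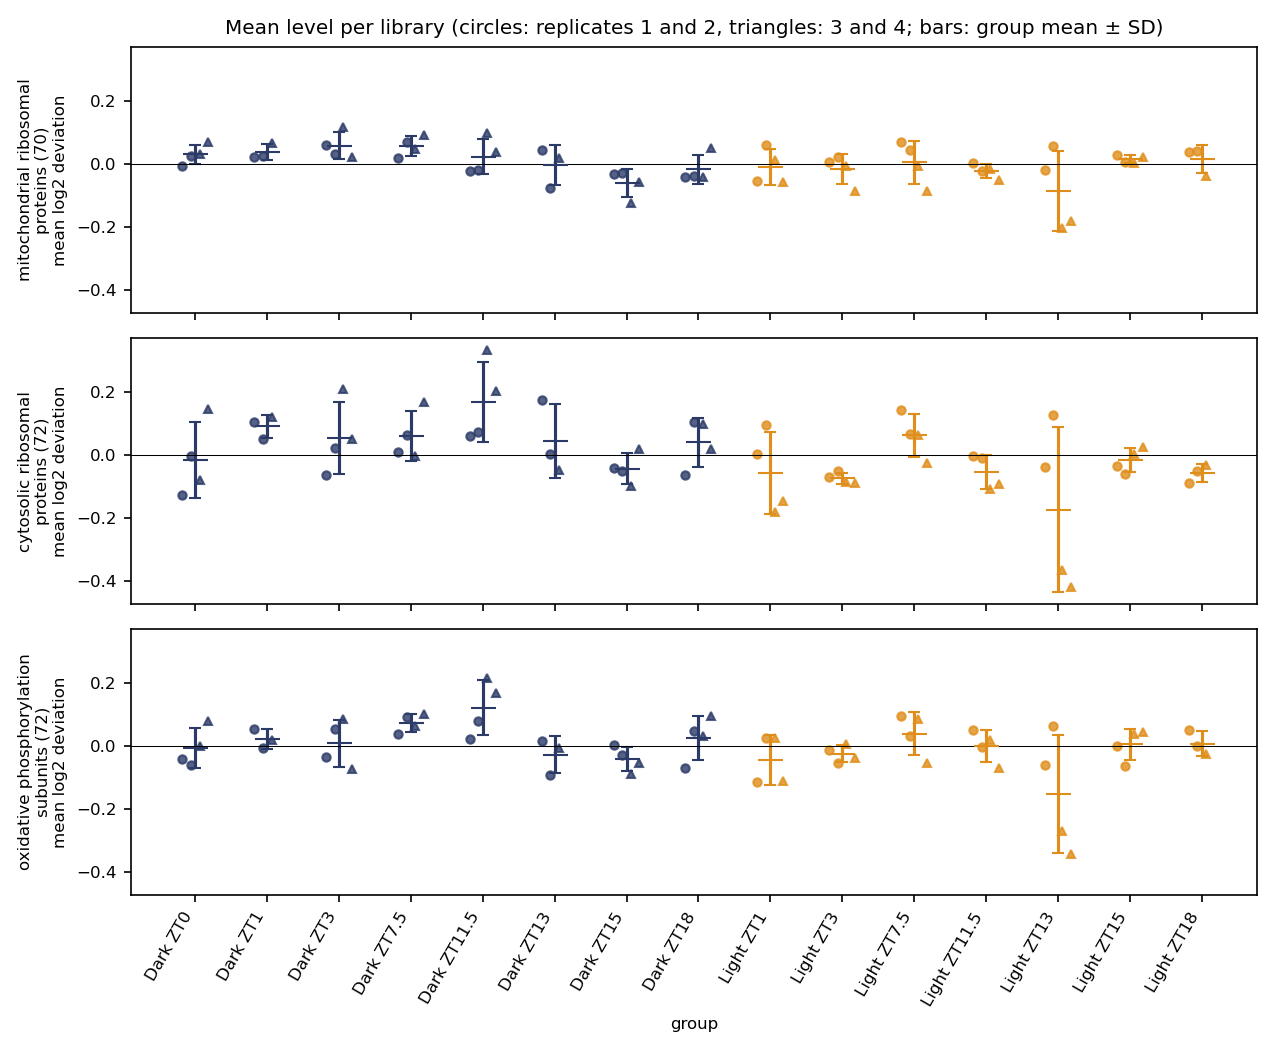
Mean log2 deviation of the 70 mitochondrial ribosomal protein genes, 72 cytosolic ribosomal protein genes and 72 oxidative phosphorylation genes in each library, by group, with group mean ± SD (dark arm blue, light arm orange; circles are replicates 1 and 2, triangles 3 and 4). The mitochondrial ribosomal proteins stay between -0.21 and 0.12, and replicates 3 and 4 of Light ZT13 are low in all 3 panels.

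No member passed the test for a response to light. Light was compared with dark at 7 times and averaged over them, by limma on log2(normalized count + 1) with Benjamini-Hochberg adjustment over all 10526 genes at 0.05, and 0 of the 70 passed in any of these 8 comparisons. The same held with edgeR's quasi-likelihood test and with DESeq2 on the recovered reads. The share of all genes passing in limma was 0.257% at ZT1, 0.124% at ZT3, 0% at ZT7.5, 0.152% at ZT11.5, 0.038% at ZT13, 0% at ZT15, 0% at ZT18 and 0.96% for the average. With shares that small, fewer than 1 of 70 genes would pass at the background rate. At an unadjusted p under 0.05 there were 1, 4, 2, 7, 5, 4 and 3 members from ZT1 to ZT18, and 6 for the average. As shares of the 70 these were 1.43%, 5.71%, 2.86%, 10%, 7.14%, 5.71% and 4.29%, and 8.57% for the average. Over all genes the shares at that p were 4.64%, 6.94%, 5.82%, 8.02%, 8.27%, 4.41% and 9.16%, and 11.8% for the average. Of the 14 immediate-early genes, which neurons induce on activity, 12 passed at ZT1 in the same libraries.

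The data bound the effect of light more closely on average than at single times. Averaged over the 7 times, the members' median log2 difference, light minus dark, was -0.01, and the 95% interval lay within ±0.5 for 68 of the 70 and within ±0.25 for 60. Among the 52 members with a mean of 100 or more, all had intervals within ±0.5 and 50 within ±0.25. At single times 53 to 57 of the 70 had intervals within ±0.5, and the members' medians ran from -0.05 at ZT1 to 0.06 at ZT15.

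The members with the smallest p for the average were Mrpl33, a small homolog of a bacterial large-subunit protein, and Mrpl42. Mrpl33 had a log2 difference of -0.22 (SE 0.07, adjusted p = 0.156). In replicates 1 and 2 the median level of Mrpl33 was 145 in dark and 143 in light libraries. In replicates 3 and 4 it was 175 in dark and 130 in light libraries. Exons of Mrpl33 overlap those of another gene on the same strand, so its counts are uncertain. Without Light ZT13 replicate 2, in which its level was 180 against 80.6 to 128 in the other 3 libraries of that group, its adjusted p was 0.0473 with a difference of -0.25. Of the 53 fits that each left out 1 library, Mrpl33 passed only in this 1. Light at single times gave Mrpl46 a log2 difference of -0.23 at ZT1, Mrpl49 -0.31 at ZT3 and -0.25 at ZT7.5, and Mrpl45 -0.35 at ZT11.5. It gave Mrpl33 -0.56 at ZT13, Mrpl51 0.51 at ZT15 and Mrpl3 0.49 at ZT18. The second smallest p belonged to Mrpl51 at ZT1 (-0.33), Mrpl30 at ZT3 (0.20), Mrpl44 at ZT7.5 (0.21) and Mrps10 at ZT11.5 (-0.27). At the later times it belonged to Mrpl1 at ZT13 (0.73), Mrps35 at ZT15 (0.31) and Mrpl23 at ZT18 (1.24, or 0.76 without Dark ZT18 replicate 3). Adjusted p-values in limma were from 0.36 to 1 for these 14 differences, and the sign varied among members and times.

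**Figure D3:**
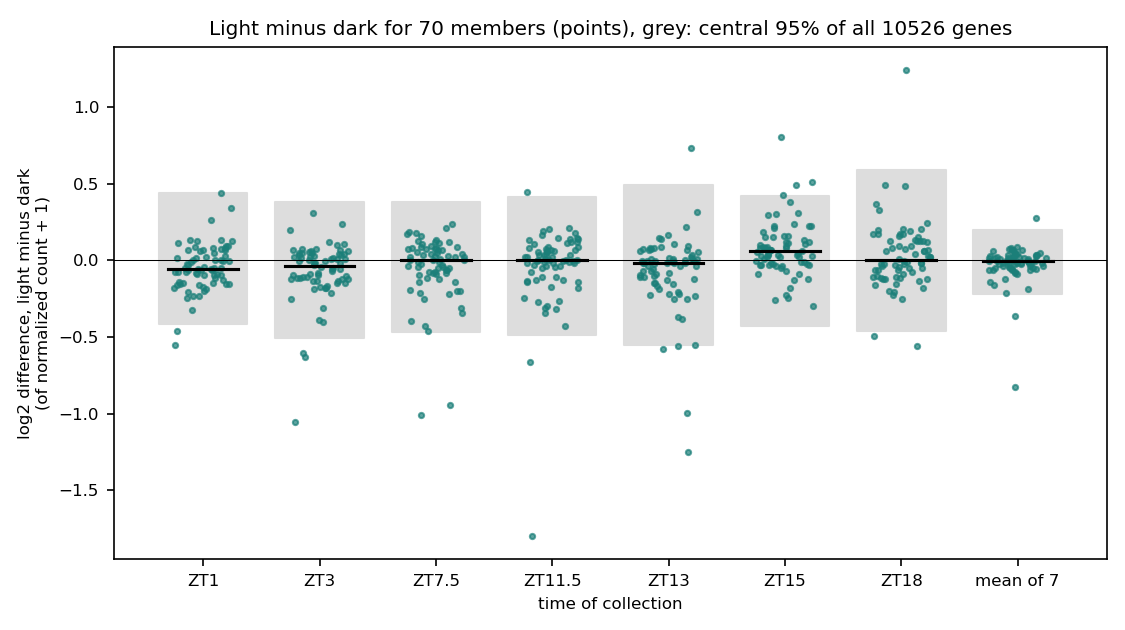
Log2 difference in normalized count + 1, light minus dark, for each of the 70 members (points) at 7 times and averaged over them, with the members' median as a bar and the central 95% of all 10526 genes in grey. The medians lie between -0.05 and 0.06, and 0 members passed the test at any time.

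Mrpl42, a mitochondria-specific protein of the large subunit, had the largest average difference between light and dark, with a log2 difference of -0.83 (SE 0.30, adjusted p = 0.203). Part of its 3′ end matches a processed pseudogene, so its counts are uncertain. Its levels followed the replicate numbers in opposite directions in the arms. In dark libraries it ran from 11.8 to 85.6 with a median of 37.2 in replicates 1 and 2, and from 10.9 to 123 with a median of 83.1 in replicates 3 and 4. In light libraries it ran from 23.4 to 82.7 with a median of 56.0 in replicates 1 and 2, and from 4.55 to 54.2 with a median of 11.4 in replicates 3 and 4. Replicates 3 and 4 were higher in 7 of 8 dark groups and lower in 7 of 7 light groups, with mean log2 differences of 0.87 and -2.06. With a term for these pairs of numbers in each arm, the average light minus dark difference of Mrpl42 was 0.54 (adjusted p = 0.442), of the other sign.

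Mrpl47, a homolog of a bacterial large-subunit protein near the exit of the nascent chain tunnel, showed the same division. Replicates 3 and 4 were higher in 7 of 8 dark groups and lower in 7 of 7 light groups, with mean log2 differences of 0.85 and -1.27. Its medians were 7.96 and 16.4 in dark libraries and 11.6 and 4.56 in light libraries, for replicates 1 and 2 and for 3 and 4. Malat1, a nuclear noncoding RNA, had mean differences of 0.85 and -1.83 with the same counts of groups. Among the 70 members, these 2 (2.86%) differed between the arms by more than 1 in this division, against 130 of all 10526 genes (1.24%). Under that limit, Mrpl48 and Mrpl16 had the same counts of groups as Mrpl42, with differences between the arms of 0.48 and 0.25. Mrps33 was higher in 7 of 8 dark groups and lower in 6 of 7 light groups (0.90). Such counts of groups were not taken over all genes. Xist was above 20 in replicates 3 and 4 of both arms, and what it marks was not tested for a part in this division. The labels do not say what the replicate numbers stand for.

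**Figure D4:**
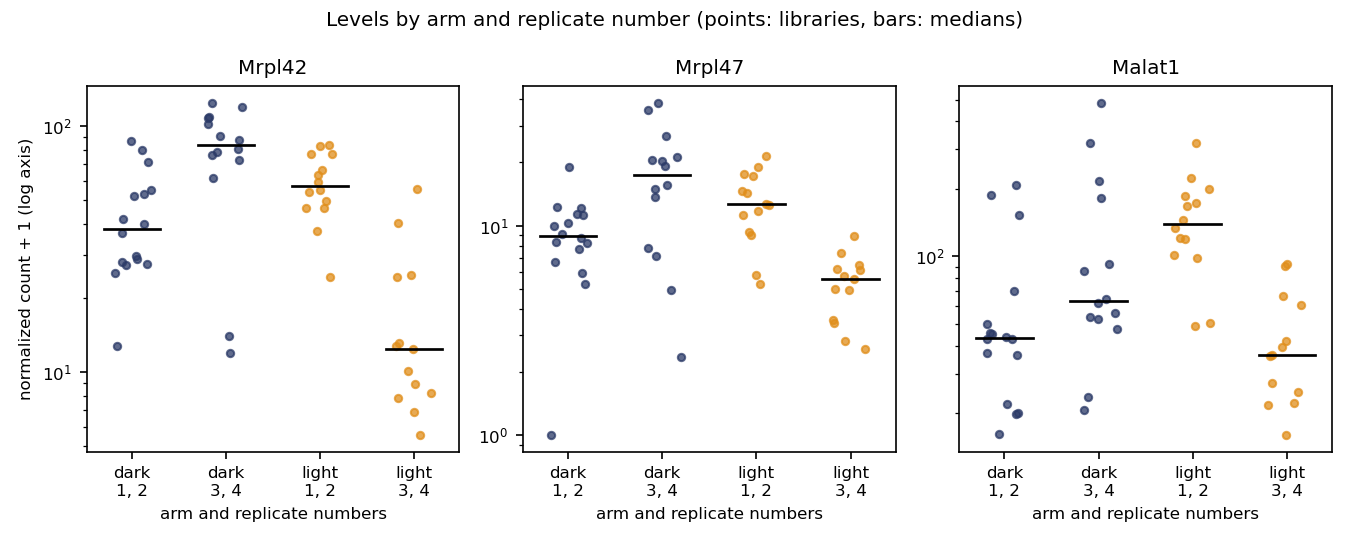
Normalized count + 1 (log axis) of Mrpl42, Mrpl47 and Malat1 in each library, by arm and by replicate numbers 1 and 2 or 3 and 4, with medians as bars. Replicates 3 and 4 have higher medians than 1 and 2 in the dark arm and lower ones in the light arm for all 3 genes.

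The hour after lights-on and the hour after lights-off brought no member past the test either. At dawn, ZT1 minus the shared Dark ZT0 baseline, 0 of 70 passed in light (0.304% of all genes) and 0 in darkness (0.057%). At an unadjusted p under 0.05 there was 1 member in light (1.43% against 5.66% of all genes) and 3 in darkness (4.29% against 8.83%). Mrpl34 had a log2 difference of -0.28 in darkness (adjusted p = 0.169) and Mrps5 of -0.49 (adjusted p = 0.245), in limma. In light Mrpl14 had -0.21 (adjusted p = 0.442) and Mrpl34 -0.15 (adjusted p = 0.893). At dusk, ZT13 minus ZT11.5, again 0 passed after a light day (0.257% of all genes) and 0 after a dark day (0.0095%). At an unadjusted p under 0.05 there were 12 members after a light day (17.1% against 11.4% of all genes) and 6 after a dark day (8.57% against 8.18%). edgeR and DESeq2 called 0 members in these 4 comparisons as well.

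At dusk most estimates nonetheless lay under 0 in both arms. After a light day 53 of 70 were negative with a median of -0.08, and after a dark day 47 with a median of -0.06, while the medians of all genes were -0.0012 and -0.0024. Medians of cytosolic ribosomal proteins were -0.13 in each arm, and those of oxidative phosphorylation subunits -0.18 and -0.15. After a light day the members' median was -0.0072 without replicates 3 and 4 of Light ZT13, and -0.05 without replicate 3 alone. After a dark day it was -0.02 without Dark ZT11.5 replicate 3. Markers of some neighbouring tissues were lower at ZT13 too, and those of others were mixed. The 3 tested hippocampus markers had medians of -0.18 after a light day and 0.09 after a dark day. The 1 tested striatum marker, Ppp1r1b, had 0.11 and -0.34. The 3 tested choroid plexus markers had medians of -2.53 and -2.08 after a light and a dark day, and the 4 thalamus markers -0.35 and -0.95, with 0 called in either list. Of 5 astrocyte markers 1 passed, Gfap, which fell after a light day by 0.65 on the log2 scale (adjusted p = 0.0142 in limma). The median of the 5 was -0.07 after a light day and -0.04 after a dark day. Their part in the members' estimates was not tested. By p, Mrpl14 came first after a light day, at -0.23 (adjusted p = 0.145), and Mrps10 (-0.36, adjusted p = 0.27) and Mrpl20 (-0.27, adjusted p = 0.38) after a dark day. Mrps28, a small-subunit protein, stood at 196, 227, 209 and 207 at Light ZT11.5 and at 173, 230, 149 and 131 at Light ZT13. Replicate 2 of Light ZT13 lay above all libraries of the earlier group, and the other 3 lay below them. Its log2 difference was -0.32 (adjusted p = 0.162), and -0.48 (adjusted p = 0.0184) without that replicate or -0.21 without replicate 4. The difference between the arms' dusk changes passed for 0 members and for 0% of all genes, and 0 members had an unadjusted p under 0.05, against 5.21% of all genes. Mrps12 had the smallest p, with -0.23 (adjusted p = 0.955), before Mrpl30 with -0.20 (adjusted p = 0.968).

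Midday and night, ZT7.5 and ZT18, differed for 0 members in the light arm (0.181% of all genes) and for 0 in the dark arm (0.532%), and edgeR and DESeq2 called 0 too. At an unadjusted p under 0.05 there were 11 members in the light arm (15.7% against 10.6% of all genes) and 7 in the dark arm (10% against 13.3%). Closest in the dark arm was Mrpl54, a mitochondria-specific large-subunit protein, with 384, 334, 340 and 329 at ZT7.5 and 311, 325, 267 and 230 at ZT18. The ZT18 libraries all lay below the ZT7.5 libraries, and the log2 difference, ZT18 minus ZT7.5, was -0.30 (SE 0.09, adjusted p = 0.0963 in limma). Mrpl47 had -1.93 (adjusted p = 0.137), and -1.15 without Dark ZT18 replicate 2, where it was listed at 0. With terms for the replicate pairs it passed (adjusted p = 0.0426). Mrps6, a small-subunit homolog, had 0.29 (adjusted p = 0.146), but its exons overlap Slc5a3 on the same strand. In the light arm Mrpl49 had a log2 difference of 0.34 (adjusted p = 0.277) and Mrpl20 of -0.26 (adjusted p = 0.281).

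Over the 8 times of the dark arm 4 of 70 members (5.71%) changed by limma's F test, against 6.52% of all genes, so the members' share was near the background. They were Mrpl3 (adjusted p = 0.032), Mrps10 (0.0351), Mrpl34 (0.0351) and Mrpl45 (0.0418), and no direction or time was common to them. Mrpl3, the homolog of a bacterial protein near the catalytic centre of the large subunit, was highest at ZT13, with 167, 183 and 175, and lowest at ZT18, with 125, 89.5, 93.7 and 103. These groups did not overlap. For Mrpl3 and the other called members, the highest and lowest groups were picked from the same values that were tested. A gap between such groups therefore adds no further support to a call. The light arm group means of Mrpl3 stayed between 119 and 154. Exons of Mrpl3 overlap those of Gm38077 on the same strand, so its counts are uncertain. Leaving out any of Dark ZT13 replicate 2 (0.0673) or 3 (0.057), or Dark ZT18 replicate 2 (0.0684), 3 (0.0602) or 4 (0.0516) raised the adjusted p of Mrpl3 above 0.05.

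Mrps10, a small-subunit homolog whose bacterial counterpart also acts in transcription antitermination, was highest in the dark arm at ZT11.5, with 188, 205, 197 and 175. It was lowest at ZT15, with 135, 127, 150 and 126, so that these groups did not overlap. The 4 values at Dark ZT11.5 also lay above all 3 at Dark ZT13 (153, 139 and 153). Part of its 3′ end matches a processed pseudogene, so its counts are uncertain. Its adjusted p was above 0.05 when Dark ZT11.5 replicate 1 (0.0744), 2 (0.12) or 3 (0.109), or Dark ZT15 replicate 2 (0.0632) or 4 (0.0589), was left out.

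Mrpl34, a small basic protein of the large subunit, was highest at Dark ZT0, with 442, 419, 460 and 435. At Dark ZT1 it was 388, 343 and 351, and it was lowest at Dark ZT13, with 314, 336 and 365. The ZT0 libraries lay above both. In light libraries its group means ran from 356 to 415. Without Dark ZT0 replicate 1 (0.0595), 3 (0.0762) or 4 (0.0522), Dark ZT1 replicate 2 (0.0606), or Dark ZT13 replicate 1 (0.0921) or 2 (0.0685), it no longer passed.

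Mrpl45, a mitochondria-specific large-subunit protein that lines the exit of the nascent chain tunnel and tethers the ribosome to the inner membrane, was lowest at Dark ZT3, with 126, 149, 125 and 133. It was highest at Dark ZT18, with 152, 186, 190 and 226, and nearly as high at Dark ZT11.5, with 165, 181, 176 and 212. In the light arm its group means stayed between 139 and 158. Its call was the least firm, since 15 of the 30 fits without 1 dark library lost it, with adjusted p-values up to 0.0933. Without the 7 libraries under 2 M reads, 5 of which are dark libraries at ZT13, ZT15 and ZT18, only replicate 1 of Dark ZT13 was left. With a group of 1 library, that fit cannot show whether the calls of these 4 genes depend on depth. The next members in the full fit were Mrps6 (adjusted p = 0.0687), Mrpl54 (0.0739), Mrpl19 (0.0793) and Mrpl53 (0.131).

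Over the 7 times of the light arm 1 of 70 members (1.43%) changed, against 3.81% of all genes. This was Mrpl14 (adjusted p = 0.0128 in limma), the homolog of a bacterial protein at the interface with the small subunit and the steadiest member between replicates. It was highest at Light ZT7.5, with 427, 416, 434 and 430, and lowest at Light ZT13, with 314, 363, 325 and 319. The means were 427 ± 7.78 and 330 ± 22.5 (SD, n = 4 each), and the groups did not overlap. In the dark arm Mrpl14 was also lowest at ZT13, at 361 ± 13.6 (n = 3), after 429 ± 13.2 (n = 4) at ZT0, and it did not pass there. Exons of Mrpl14 overlap those of another gene on the opposite strand, and the use of strand is not given, so its counts are uncertain. No fit without 1 light library lost the call. It was lost without replicates 3 and 4 of Light ZT13 (adjusted p = 0.0883) and in a fit to the light groups alone (0.108). All 4 Light ZT13 libraries had Xist above 20, and with a term for Xist above 20 the call was kept. The next members were Mrps34 (adjusted p = 0.0998), Mrps28 (0.104), Mrpl54 (0.117), Mrps7 (0.118), Mrpl30 (0.146), Mrpl52 (0.155) and Mrps10 (0.16).

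The light and dark courses themselves were not told apart. The F test for arms that diverged by different amounts at different times called 0 members in limma (0.181% of all genes) and 0 in edgeR. At an unadjusted p under 0.05 there were 5 members (7.14% against 6.87% of all genes). The adjusted p was 0.58 for Mrps10, 0.589 for Mrps35, 0.619 for Mrpl51, 0.649 for Mrpl49, 0.685 for Mrpl30, 0.717 for Mrpl44, 0.733 for Mrpl46 and 0.823 for Mrpl23. So a member that passed in 1 arm and not in the other is not shown to differ between arms.

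**Figure D5:**
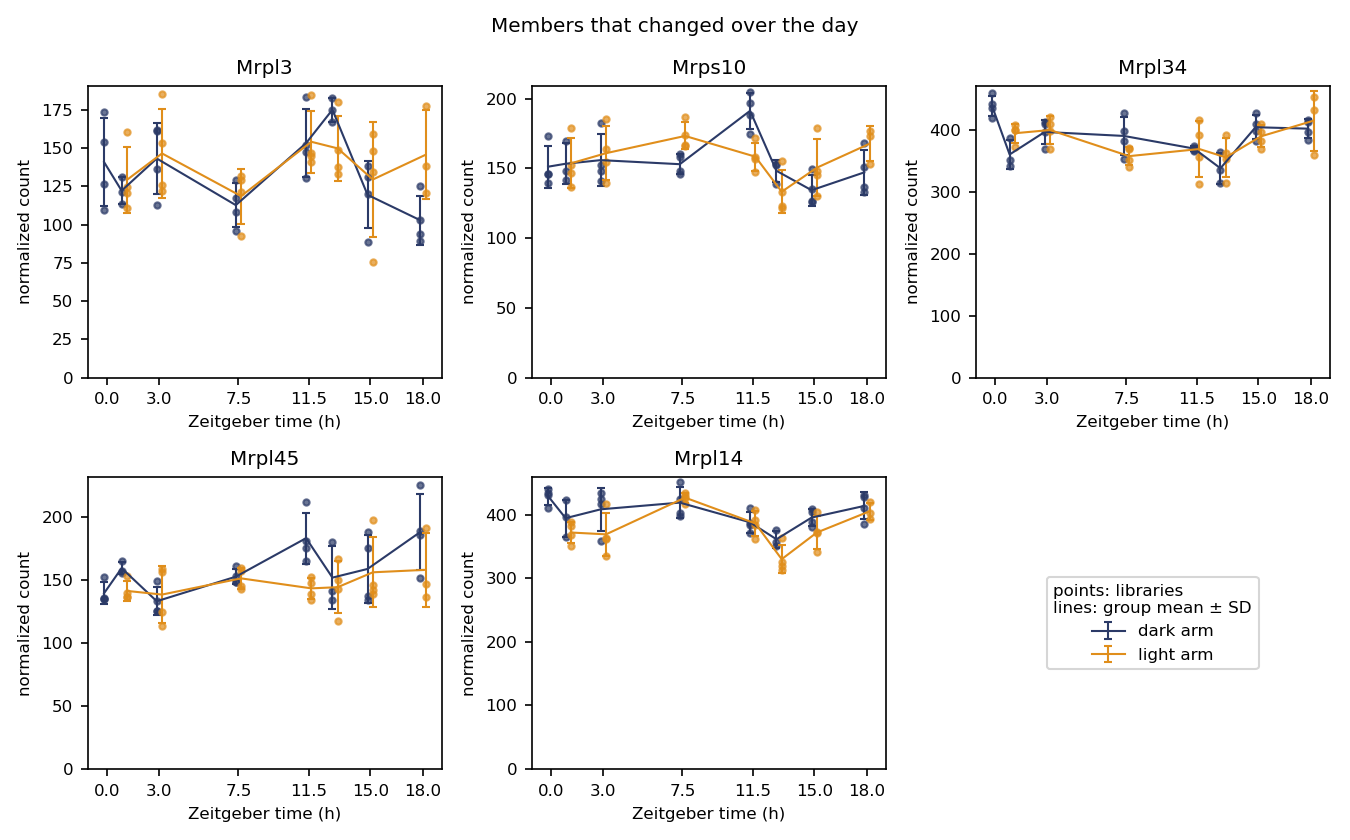
Normalized count over Zeitgeber time of the 5 members that passed an F test of change over the day, with libraries as points and group mean ± SD as lines (dark arm blue, light arm orange). Mrpl3, Mrps10, Mrpl34 and Mrpl45 passed in the dark arm and Mrpl14 in the light arm, where it falls from 427 at ZT7.5 to 330 at ZT13.

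Other genes that serve mitochondrial protein synthesis were examined as lists, and none of their members passed for light averaged over the 7 times. The lists' median log2 differences, light minus dark, ran from -0.04 to 0.06, against -0.01 for the 70 members. Over the dark times 0 of 9 mitochondrial translation factors, 0 of 20 ribosome assembly and RNA modification genes, 0 of 9 nuclear regulators of mitochondrial genes and 0 of 16 mitochondrial aminoacyl-tRNA synthetases passed, and the same counts held over the light times. Of 12 genes for the expression of mitochondrial DNA, Polrmt, the mitochondrial RNA polymerase, passed in the dark arm (adjusted p = 0.0446). Of 3 tested genes for mitochondrial ribosomal proteins whose symbols lack the family prefix, Chchd1 among them, 0 passed in either arm. Of 18 genes for protein import and inner membrane quality control 4 passed in the dark arm, namely the protease subunit Spg7 (adjusted p = 0.00405), the presequence peptidase subunits Pmpcb (0.0365) and Pmpca (0.044), and the import receptor Tomm20 (0.048). Of 72 cytosolic ribosomal proteins 6 passed in the dark and 3 in the light arm. Of 72 oxidative phosphorylation subunits Cox6c passed in the dark arm, and Ndufb9, Ndufa13 and Ndufs8, complex I subunits, in the light arm. All 5 oligodendrocyte markers, 1 of 4 microglia markers (Cx3cr1, adjusted p = 0.0353) and 1 of 3 endothelial markers (Cldn5, 0.00014) passed over the dark times. Over the light times 2 of 5 oligodendrocyte markers (Mog, 0.00173, and Mag, 0.021) and 1 of 5 astrocyte markers (Gfap, 0.00393) passed. For the oligodendrocyte markers the summed level ran from 12597 to 22279 in dark libraries and from 12166 to 25009 in light libraries. The part of these markers in the members' changes was not tested.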

How the data were processed

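Reads were trimmed with cutadapt, aligned to mm10 with STAR 2.5.2b, and DESeq2 gave the normalisation, as the submitters' processing notes state. The sources used here give no annotation, counting tool, molecular identifiers or strand setting. The deposited table holds 1 signal value per gene and library, the authors' gene counts divided by a size factor. The spacing of low values gave the worth of 1 read in each library, and 100% of values then lay within 0.01 of a whole number (largest distance 0.0069). Of 24421 rows, 27 with date names (0.294% to 0.363% of a library's values) were left out. None of the 81 replicate pairs agreed within sampling noise (chi-square per degree of freedom 2.14 to 7.01).

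The 10526 genes with a mean of at least 10 were tested with limma 3.58.1 (R 4.3.3) on log2(value + 1), with a mean-variance trend. All 57 libraries shared 1 estimate of the spread per gene, without covariates, and differences on this scale understate changes of low genes. Tests were two-sided, adjusted by Benjamini-Hochberg at 0.05 over all genes. The statistics were tested on simulated data. The alternatives were edgeR 4.0.16 and DESeq2 1.42.0 on recovered reads, other filters and pseudocounts, TMM rescaling, the replicate number as a block, terms for replicates 3 and 4 in each arm, and left-out libraries. DESeq2 was run on the 15 contrasts and not on the F tests. The low Light ZT13 libraries and a term for Xist were added after the data were seen.

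Groups and replicate numbers come from the labels. The numbers are not stated to mark a shared animal or batch and were not taken to pair samples across groups. Members, gene lists and tests were chosen with earlier results of these data known. Genes were named by rule: the members passing each contrast, or the 2 of smallest p, the 8 of smallest p in each F test, and the highest, lowest, steadiest and most variable members. Of other lists, up to 3 of smallest p were named, and Tomm20, Slc5a3, Mrpl16, Mrpl48, Mrps18a, Mrps30, Mrps36 and marker genes were named outside the rule. 3′ ends were compared with BLAST 2.17.0. Promoters are from RefSeq.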

Additional observations from a re-analysis of the deposited data

Results flagged for a closer look

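Within groups of 4, a library was marked where its gap to the nearest of the others took up most of the group's range (Dixon's test at 95%). Chance marks about 1 in 20 groups, and 6 of 84 checks were marked. The summed level of the members was 16850 in Dark ZT11.5 replicate 3, against 15690 to 15845 in the other libraries of the group, and 16376 in Dark ZT18 replicate 2, against 15599 to 15687. Mrpl3 was 184 in Light ZT11.5 replicate 1, against 141 to 147. Mrpl45 was 153 in Dark ZT0 replicate 4, against 135 to 136, and 198 in Light ZT15 replicate 4, against 139 to 147. Mrpl42 was 7.24 in Light ZT3 replicate 4, against 48.5 to 54.2, while replicate 3 of that group lay with replicates 1 and 2.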

How the results depend on the processing

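Over the 18 comparisons, the count of members passing was the same under a pseudocount of 5, a minimum mean of 50, TMM rescaling (largest shift of a group 0.0074), edgeR, DESeq2 (15 contrasts) and a term for Xist above 20. Deviations of libraries with the same number in different groups correlated at 0.021 on average (lowest -0.26), against -0.0068 for other numbers, and 22 of 57 libraries correlated best with their own number, so not every library did. With the replicate number as a block, the count over the dark times was 5 in place of 4, since Mrpl19 passed (adjusted p = 0.0469), and no other count moved. Mrps6 also passed over the dark times, with the 4 members kept, in a fit to those groups alone (adjusted p = 0.0283 in limma). It passed as well with terms for the replicate pairs (0.0371). Larger moves of a count are these, and the cause was not tested. Over the dark times 4 members became 2 without a filter on low values (Mrpl34 and Mrps10). Without the libraries under 2 M reads only replicate 1 of Dark ZT13 was left, so no count over the dark times is given for that fit. Leaving out single libraries gave 2 to 4, and 2 without Dark ZT0 replicate 1 or 3, Dark ZT1 replicate 2, Dark ZT11.5 replicate 2 or 3, Dark ZT13 replicate 2, or Dark ZT18 replicate 3 or 4. Over the light times 1 became 0 in a fit to those groups alone and 0 without Light ZT13 replicates 3 and 4, and 1 to 2 without single libraries (2 without replicate 2 of Light ZT13 or of Light ZT15). For night minus midday in the dark arm 0 became 1 with terms for the replicate pairs (Mrpl47, adjusted p = 0.0426 in limma). The count was also 1 without the libraries under 2 M reads (Mrpl23), where only replicates 2 and 3 of Dark ZT18 were left. The count for dusk after a light day ranged from 0 to 1 without single libraries (Mrps28), and that for the average of light minus dark from 0 to 1 (Mrpl33), both at 1 without Light ZT13 replicate 2. When single libraries were left out, the members' median light minus dark differences lay between -0.0925 and 0.068. These came at ZT13 without Dark ZT13 replicate 2 and at ZT15 without Dark ZT15 replicate 2. The median at ZT13 was -0.111 without the libraries under 2 M reads, where only replicate 1 of Dark ZT13 was left. Of differences of named members, that of Mrpl42 averaged over the 7 times changed sign with terms for the replicate pairs (0.541). Members with a mean near 10 rest on few reads per library, and changes in them are limited by depth.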

Other observations

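Chchd1, which encodes a small-subunit protein of the mitochondrial ribosome outside the family symbol, ranked first among genes outside the 70 for likeness to the members' mean over the 15 group means (Pearson r = 0.905). Its mean level was 252, with group means between 217 ± 68.0 (SD, n = 4) at Light ZT13 and 283 ± 32.7 (n = 4) at Dark ZT3. The libraries of Light ZT13 ran from 137 to 302 and those of Dark ZT3 from 256 to 330, so the groups overlapped. These values come from the same libraries and normalisation as the members, and no test was made of the likeness.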
